A study of Mus musculus with 6 samples.

Results

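Hsf1, the master transcription factor of the heat shock response, and 9 chaperone genes that it is known to control (Hspa1a, Hspa1b, Hspa8, Hsph1, Dnajb1, Hsp90aa1, Hsp90ab1, Hspb1 and Hspa4) were followed in depolarized mouse cortical neurons by RNA-seq. The genes were chosen by name, as known members of the pathway and with earlier results of these data known, and are 10 of the 43432 genes listed in the deposited tables. All of them had a count in at least 1 library. The neurons came from the cortex of wild-type C57BL/6 embryos at E16.5, with both sexes pooled, and were cultured for 7 days. Every culture was first silenced overnight with 1 µM tetrodotoxin, a blocker of voltage-gated sodium channels, and 100 µM DL-AP5, a blocker of NMDA receptors. RNA was then taken before (0 h) or after 2 h or 6 h in 55 mM KCl, which depolarizes the membrane and opens calcium channels, with 2 biological replicates per time and 6 libraries in all. No culture kept for 2 h or 6 h without KCl was analysed here, so KCl and elapsed time cannot be told apart.

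HSF1 is held inactive in unstressed cells by binding to chaperones. When unfolded proteins draw the chaperones away, HSF1 forms trimers, binds heat shock elements in promoters and raises the transcription of chaperone genes, so that its activity is set mainly on the protein and not by the amount of its mRNA. Among its targets, Hspa1a and Hspa1b encode the stress-inducible Hsp70 and Hspb1 encodes the small heat shock protein Hsp27. Hspa8 (Hsc70), Hsp90ab1, Hspa4 and Hsph1 are also made in unstressed cells, and neurons are known for high levels of Hsc70, which strips clathrin from synaptic vesicles, together with a high threshold for inducing Hsp70.

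The heat shock element is built of inverted repeats of GAA, and it is shown here because it is the sequence through which HSF1 acts on these genes. Promoter windows from 250 bases before to 50 bases after the transcription start (RefSeq, GRCm38.p6) were matched for 6 of the 10 genes, with 8 windows in all. Hsf1, Hspa8, Hsp90aa1 and Hsp90ab1 were not matched. Both strands were searched for the 2-unit forms GAANNTTC and TTCNNGAA, and for the 3-unit form, in which a further repeat follows after 2 bases so that both 2-unit forms overlap in it. The elements of 4 genes are printed 5′ to 3′ on the strand of the gene, with the matched letters in capitals.
Hspa1a, chr17:34972247-34972266, minus strand: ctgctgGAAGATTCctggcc
Hspa1b, chr17:34959329-34959348, minus strand: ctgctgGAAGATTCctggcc
Hspb1, chr5:135887796-135887815, plus strand: acaagaGAAGTTTCcagatg
Hspb1, chr5:135887816-135887835, plus strand: ggggcaGAACCTTCctggcc
Hsph1, chr5:149636356-149636375, minus strand: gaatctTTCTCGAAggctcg
Hsph1, chr5:149636282-149636306, minus strand: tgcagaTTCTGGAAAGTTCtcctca

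The matched letters lay 104 to 97 bases upstream of the start in both Hspa1a and Hspa1b, and 117 to 110 and 97 to 90 bases upstream in Hspb1. In Hsph1, which has 2 annotated starts in the table, the first element lay 33 to 26 bases upstream of one start and 54 to 47 bases upstream of the other, and the 3-unit element lay downstream of both. The windows of Dnajb1 and Hspa4 did not hold these letters. Of all 32851 promoter windows of the table, 15.1% held a 2-unit form and 0.603% a 3-unit form. The activity-linked motifs TGACGTCA (the CREB site) and TGANTCA (the AP-1 site) were found in none of the members' windows, against 1.79% and 7.81% of all windows. A match describes letters in a window and is not evidence of binding, and neither is the absence of a match evidence against it.

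The libraries held between 25959298 and 28573067 expected counts in 18767 to 19212 genes. The means of 7 neuronal markers ran from 42.9 TPM (Slc17a7) to 1100 TPM (Tubb3), where TPM is the share of transcripts scaled for length. The summed level of 5 astrocyte markers was 363 to 474 TPM, with Gfap at a mean of 19.5 TPM and Slc1a3 at 300.1 TPM, and that of 5 oligodendrocyte lineage markers was 72.9 to 113 TPM. The 6 microglial markers (2.37 to 6.48 TPM) and the 8 endothelial and mural markers (3.29 to 5.08 TPM) were near 0. The replicates at 2 h stood further apart than those at the other times: the log2 ratio of the replicates had an SD over genes of 0.43 at 2 h against 0.25 (0 h) and 0.21 (6 h). The rank correlation of that ratio with GC content, taken across genes, was -0.73 at 2 h against -0.39 (0 h) and -0.28 (6 h). Their mitochondrial shares, 3.742% and 2.462%, were the highest and the lowest of the 6. In bulk RNA, fewer cells of a type and less RNA per cell cannot be told apart.

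Levels of different genes were set side by side in TPM, a scale per transcript length. Hspa8 stood first (mean 3168 TPM over the 6 libraries), followed by Hsp90ab1 (1843 TPM) and Hsp90aa1 (1446 TPM), and together these made up 93.1% to 94.0% of the TPM of the 10 genes. Hspa4 (219 TPM) and Hsph1 (167 TPM) came next, with ranges that overlapped, then Dnajb1 (46.0 TPM) and Hsf1 (15.1 TPM). Hspa1a (0.557 TPM), Hspa1b (0.385 TPM) and Hspb1 (0.238 TPM) came last, and their ranges overlapped. The 10 genes summed to 0.640% ± 0.0147 of all TPM at 0 h, 0.727% ± 0.0230 at 2 h and 0.705% ± 0.0207 at 6 h (SD, n = 2 each).

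**Figure D1:**
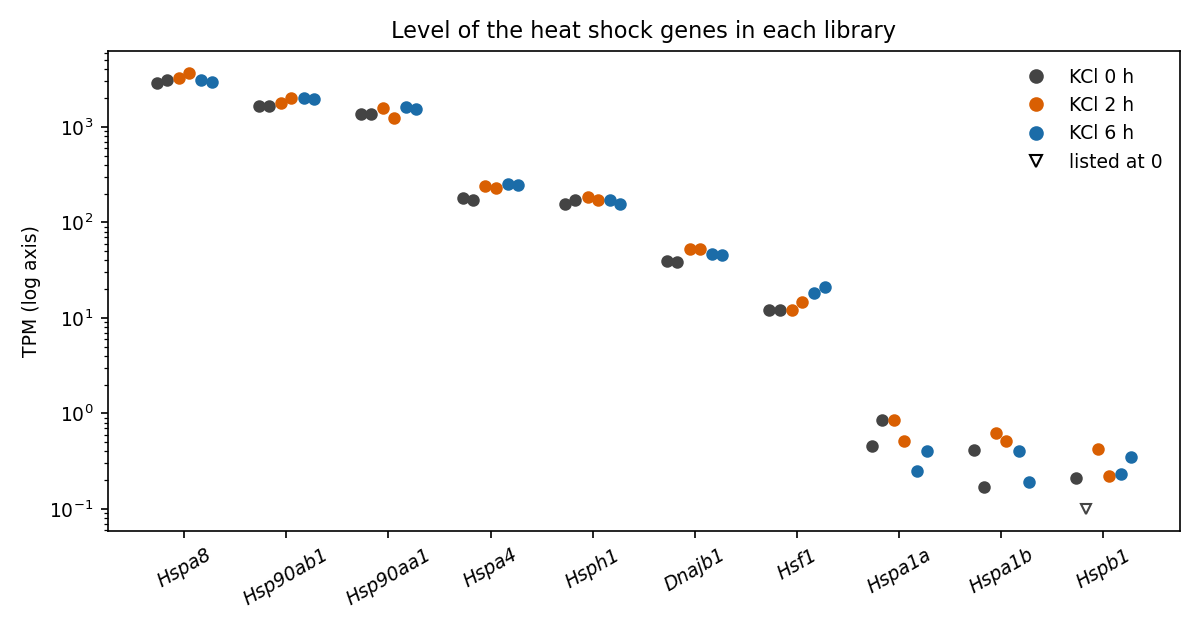
The level of each gene in each library in TPM on a log axis, ordered by the mean, with 2 points per time in KCl. The 3 abundant chaperones lie above 1000 TPM in all 6 libraries, whereas Hspa1a, Hspa1b and Hspb1 lie below 1 TPM, and the open triangle marks Hspb1 listed at 0 in 1 library.

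The regulator was examined first. Hsf1 (ENSMUSG00000022556, chr15:76477422-76501913, GRCm38, plus strand) rose late. Its normalized counts, which are expected counts divided by DESeq2 size factors, were 297 and 290 before KCl (0 h), 334 and 402 after 2 h, and 505 and 573 after 6 h. The 3 times did not overlap, and both 6 h libraries stood above both libraries of each earlier time. Compared to 0 h, the log2 fold change was 0.88 at 6 h (SE 0.18, adjusted p = 8.16e-06, DESeq2 Wald test with Benjamini-Hochberg adjustment over all genes), a 1.84-fold rise with a 95% interval of 1.43 to 2.35. At 2 h it was 0.32 (SE 0.18, adjusted p = 0.203). Between 2 h and 6 h the log2 fold change was 0.55 (SE 0.18, adjusted p = 0.00696), but this call was lost without the first 2 h library (0.43, adjusted p = 0.0823), the first 6 h library (0.64, adjusted p = 0.0624) or the second 6 h library (0.46, adjusted p = 0.219). The rise from 0 h to 6 h held under all 16 alternatives, where the log2 fold change ran from 0.63 to 0.98.

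The 5 genes whose time course lay closest to that of Hsf1, by the distance over the 3 group means of centred log2 normalized counts among 11182 genes, were Hmox1 (0.0075), Gnai1 (0.0109), Rbm3 (0.0117), Akt2 (0.0194) and Rgs6 (0.0209). The log2 difference between the replicates of Hsf1 itself was -0.27 for 2 h and -0.18 for 6 h (first against second), in size far more than these distances, so neither the order nor the choice of these genes is resolved by 2 libraries per time. Hmox1 encodes the inducible heme oxygenase, also known as Hsp32. Its mean normalized count was 474 before KCl, 596 after 2 h and 869 after 6 h. Rbm3, which encodes a cold-inducible RNA-binding protein, went from 2952 to 3723 and 5442. Gnai1 encodes an inhibitory G protein subunit, Akt2 a protein kinase of insulin signalling and Rgs6 a regulator of G protein signalling.

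The stress-inducible Hsp70 pair was scarce in every library, and no change of it passed the test. Hspa1a (ENSMUSG00000091971, chr17:34969190-34972156, minus strand) had expected counts of 19.74 and 37.83 in the 0 h libraries, 37.06 and 21.26 in the 2 h pair, and 10 and 15.57 in the 6 h pair. Hspa1b (ENSMUSG00000090877, chr17:34956436-34959238, minus strand) had 16.26 and 7.17 before KCl (0 h), 24.94 and 20 after 2 h, and 15 and 7 after 6 h. The neighbouring copies share long stretches: their promoter windows differed at 4 of 300 bases, and 38.1% of the 150-base stretches of the Hspa1a transcript occurred unchanged in the Hspa1b transcript. Expected counts that were not whole in 5 libraries for Hspa1a and 3 for Hspa1b show that reads were divided between transcripts, so the sum of the pair is the safer value. Among the other members, the expected counts of Hspa8 and Hsp90aa1 were also not whole, in 5 libraries each.

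Summed over Hspa1a and Hspa1b, the expected counts were 36 and 45 in the 0 h libraries, 62 and 41.26 in the 2 h pair, and 25 and 22.57 in the 6 h pair. After scaling, the normalized counts of the sum were 32.0 and 37.9 before KCl, 61.9 and 42.4 after 2 h, and 26.8 and 24.7 after 6 h. These did not overlap between times, whereas the expected counts of 0 h and 2 h did, and both 6 h libraries were the lowest on either scale. The log2 fold change of the sum was 0.58 at 2 h compared to 0 h (SE 0.45, adjusted p = 0.395) and -0.44 at 6 h compared to 0 h (SE 0.47, adjusted p = 0.478). The 95% interval was 0.811-fold to 2.75-fold for 2 h and 0.387-fold to 1.40-fold for 6 h, so that a rise of more than 2.75-fold at 2 h or 1.40-fold at 6 h lay outside them. Between 2 h and 6 h the log2 fold change was -1.02 (SE 0.47, adjusted p = 0.0627), with a 95% interval of 0.261-fold to 0.932-fold and an unadjusted p of 0.0295. Per 1000 TPM of the constitutive Hspa8, the pair had 0.315 ± 0.0213 TPM at 0 h, 0.367 ± 0.121 at 2 h and 0.205 ± 0.0072 at 6 h (SD, n = 2 each).

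Hspb1 (ENSMUSG00000004951, chr5:135887919-135889563, plus strand) had 2 and 0 expected counts before KCl (0 h), 4 and 2 after 2 h, and 2 and 3 after 6 h. All but 1 of these were at or under the 3 counts that a count of 0 still allows, so no fold is given, and a change was not detectable at this depth.

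The constitutive Hsp70 and its relatives moved by less than 2-fold. Hspa8 (ENSMUSG00000015656, chr9:40800984-40810087, plus strand) had normalized counts of 72873 and 75227 in the 0 h libraries, 94793 and 101807 in the 2 h pair, and 87169 and 82441 in the 6 h pair. Both 2 h libraries stood above all others, and the 6 h libraries lay in between. Hspa8 rose by 0.41 on the log2 scale at 2 h (SE 0.10, adjusted p = 2.4e-04). At 6 h the value was 0.20 above 0 h (adjusted p = 0.0893) and -0.21 relative to 2 h (adjusted p = 0.0616). The 2 h call was lost without the first (adjusted p = 0.128) or the second 0 h library (adjusted p = 0.0751). The difference between 6 h and 2 h passed in 7 of 13 alternatives on the counts: with edgeR's quasi-likelihood test (-0.24, adjusted p = 0.0281), TMM factors (-0.25, 0.0224), library totals (-0.29, 0.0207), the GC correction (-0.34, 2.92e-04), the replicate block with GC correction (-0.34, 2.29e-04), and without the first (-0.26) or the second 2 h library (-0.15). The difference between 6 h and 0 h also passed when either 2 h library was left out (0.19 each, adjusted p = 4.37e-04 and 5.69e-04).

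Hspa4 (ENSMUSG00000020361, chr11:53259814-53300457, minus strand), an Hsp110-type nucleotide exchange factor that recharges Hsp70 with ATP, had the smallest adjusted p of the 10 genes at both times compared to 0 h. Its normalized counts were 11062 and 10227 before KCl (0 h), 16708 and 15642 after 2 h, and 17526 and 16781 after 6 h. Both later times stood clear of 0 h, and the replicates of a time lay close together. The log2 fold change from 0 h was 0.60 at 2 h (SE 0.10, adjusted p = 9.4e-08) and 0.69 at 6 h (SE 0.10, adjusted p = 2.73e-10), and it was 0.08 between 2 h and 6 h (adjusted p = 0.535). Both rises held under all 16 alternatives, which gave 0.41 to 0.68 for 2 h and 0.44 to 0.75 for 6 h.

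Hsph1 (ENSMUSG00000029657, chr5:149614287-149636376, minus strand), the other Hsp110 and the one with heat shock elements in its window, had normalized counts of 7374 and 7273 in the 0 h libraries, 8862 and 9088 in the 2 h pair, and 8737 and 8243 in the 6 h pair. The 0 h libraries were the lowest. Its log2 fold change was 0.29 at 2 h (SE 0.09, adjusted p = 0.00877) and 0.21 at 6 h (SE 0.09, adjusted p = 0.0497). The 2 h call held under 8 of 16 alternatives and the 6 h call under 4 of 16. With a minimum mean count of 10 the DESeq2 adjusted p at 6 h was 0.0507. The 2 h call was lost without either 0 h library (adjusted p = 0.284 and 0.332) or either 6 h library (0.128 and 0.127). The 6 h call was lost without either 0 h library (0.338 and 0.397) or either 6 h library (0.474 and 0.25) and with edgeR (0.0633), and its sign turned when libraries were scaled by their totals (-0.033).

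Dnajb1 (ENSMUSG00000005483, chr8:83608193-83612653, plus strand), the Hsp40 co-chaperone that delivers unfolded proteins to Hsp70, rose at both times and was highest at 2 h. Its normalized counts were 1102 and 1053 before KCl (0 h), 1659 and 1641 after 2 h, and 1475 and 1420 after 6 h, with no overlap between times. The log2 fold change from 0 h was 0.62 at 2 h (SE 0.11, adjusted p = 5.7e-07) and 0.43 at 6 h (SE 0.11, adjusted p = 5.5e-04). Between 2 h and 6 h it was -0.19 (adjusted p = 0.16). The rise at 2 h held under all 16 alternatives, from 0.43 to 0.66. The rise at 6 h was lost when either 0 h library (adjusted p = 0.0578 and 0.117) or either 6 h library (0.109 and 0.062) was left out.

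**Figure D2:**
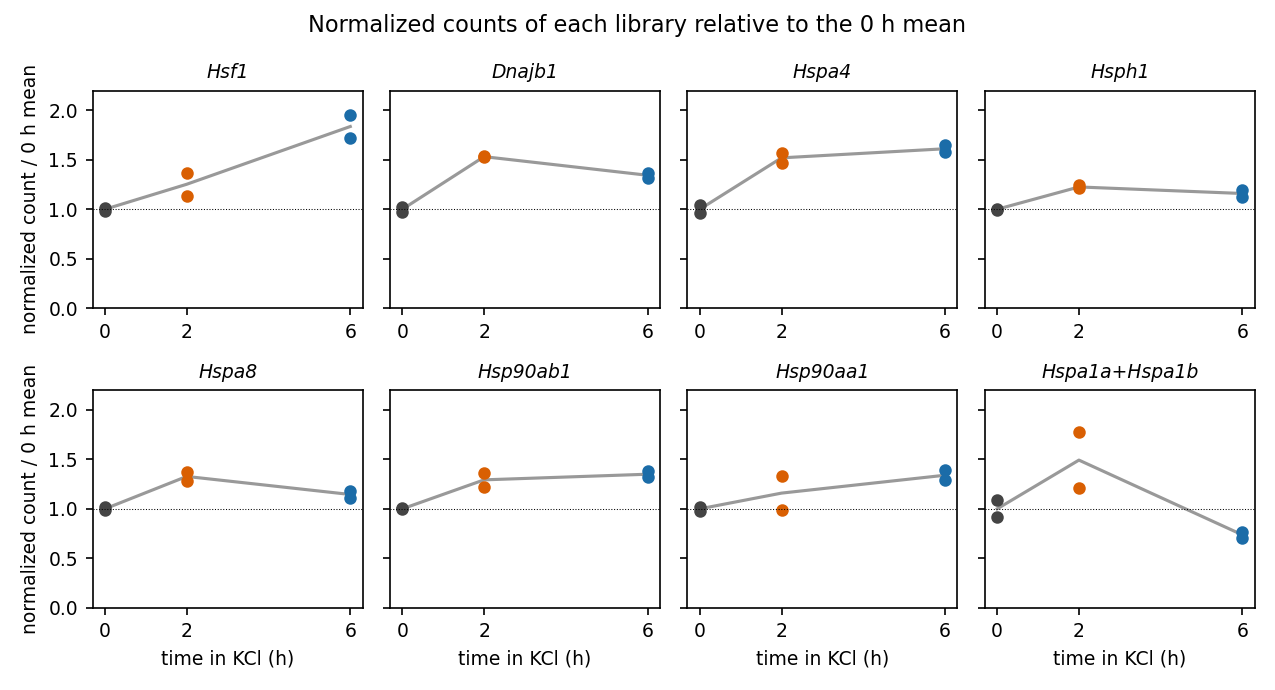
Normalized counts of each library divided by the mean of the 0 h libraries, against time in KCl in hours, for 7 single genes and for the sum of Hspa1a and Hspa1b. Points are libraries and lines join the means of 2. Hsf1 climbs to 6 h, Dnajb1 and Hspa8 are highest at 2 h, Hspa4 is raised at both times, and the 2 h points of Hsp90aa1 lie far apart.

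Hsp90, which holds kinases and steroid receptors in a ready state and keeps HSF1 inactive, is made from 2 genes. Hsp90ab1 (ENSMUSG00000023944, chr17:45567775-45573271, minus strand), the constitutive form, had normalized counts of 51991 and 51389 in the 0 h libraries, 63180 and 70497 in the 2 h pair, and 71399 and 68159 in the 6 h pair. The 2 h and 6 h libraries overlapped and all stood above 0 h. The log2 fold change was 0.37 at 2 h (SE 0.10, adjusted p = 0.0024) and 0.43 at 6 h (SE 0.10, adjusted p = 1.39e-04). The 2 h call was lost without the first (adjusted p = 0.159) or the second 0 h library (0.182), and the 6 h call without the second 0 h (0.0547) or the first 6 h library (0.0646).

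Hsp90aa1 (ENSMUSG00000021270, chr12:110690605-110702728, minus strand), the more inducible form, had normalized counts of 52964 and 50838 before KCl (0 h), 69065 and 51250 after 2 h, and 72057 and 67027 after 6 h. The second 2 h library lay within the 0 h range and the first close to 6 h. The replicates at 2 h differed by 0.43 on the log2 scale, against 0.06 at 0 h and 0.10 at 6 h, and the gene has a GC content of 43.74%. The part of GC content in that gap was not tested. The log2 fold change was 0.21 at 2 h (SE 0.16, adjusted p = 0.383) and 0.42 at 6 h (SE 0.16, adjusted p = 0.0228). At 2 h it was 0.32 (adjusted p = 3.53e-04) after a correction of each library for GC content, 0.39 (adjusted p = 4.75e-08) without the second 2 h library and -0.03 (adjusted p = 0.813) without the first. The 6 h call was lost without either 0 h library (adjusted p = 0.117 and 0.192) or either 6 h library (0.227 and 0.104) and with TMM factors (0.055). Between 2 h and 6 h, Hsp90aa1 passed only without the first 2 h library (0.45, adjusted p = 6.14e-11), and Hsp90ab1 only without the second (0.16, adjusted p = 0.0245). The ratio of Hsp90aa1 to Hsp90ab1 in TPM was 0.821 ± 0.0106 before KCl, 0.749 ± 0.184 after 2 h and 0.796 ± 0.0114 after 6 h (SD, n = 2 each).

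Counted together, 5 of the 9 genes with an adjusted p rose at 2 h compared to 0 h (Hspa8, Hsph1, Dnajb1, Hsp90ab1 and Hspa4), where 12.3% of all 16840 genes tested rose and 14.2% fell. At 6 h compared to 0 h, 6 of 10 rose (Hsf1, Hsph1, Dnajb1, Hsp90aa1, Hsp90ab1 and Hspa4), where 23.7% of 17277 genes rose and 21.7% fell. Between 2 h and 6 h, Hsf1 alone of 9 rose, where 24.1% of 16404 genes rose and 21.2% fell. These shares are of genes of all levels, and none was matched to the high counts of most members that passed. Both libraries of the later time stood above both of the earlier one, at any size of difference, for 7 of the 9 tested members at 2 h and 8 of 10 at 6 h compared to 0 h, against 31.5% and 40.9% of all genes tested, and for 2 of 9 between 2 h and 6 h, against 38.2%. The reverse order held for 0, 1 (Hspa1a) and 5 members (Hspa1a, Hspa1b, Hspa8, Hsph1 and Dnajb1), against 31.1%, 39.6% and 36.6% of all genes. The 8 members that stood above 0 h at 6 h include Hspb1. Its normalized counts were 2.14 and 3.23 at 6 h and 1.78 and 0 at 0 h, too low to show a change. None of the 10 fell in the DESeq2 test in any comparison. At an unadjusted p of at most 0.05 and by edgeR, none fell at 2 h or 6 h compared to 0 h, and 1 fell between 2 h and 6 h in each (Hspa8). The median log2 fold change of the members was 0.37 at 2 h and 0.42 at 6 h, against 0.02 and 0.00 over all genes tested.

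No single member passed the rule of the study, which also asks for a fold above 2, in any comparison. The same was true of the single members at an unadjusted p and by edgeR, whereas the sum of Hspa1a and Hspa1b was past 2-fold at an unadjusted p between 2 h and 6 h, as given above. Of all genes tested, 3.62% rose and 5.94% fell by that rule at 2 h, 9.1% and 10.2% at 6 h, and 10.1% and 8.02% between 2 h and 6 h.

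The smaller changes did not withstand scaling by library totals but largely withstood TMM factors, with which all 5 calls at 2 h held and only Hsp90aa1 (adjusted p = 0.055) and Hsph1 (0.113) lost theirs at 6 h. When libraries were scaled by their total counts, the median of all genes shifted to -0.15 at 2 h (0.02 by the size factors) and to -0.25 at 6 h (0.00). By that scaling 1150 of all genes rose and 3339 fell at 2 h, and 2637 rose and 5306 fell at 6 h, compared with 2073 and 2396 and with 4089 and 3744 by the size factors. Only Dnajb1 (0.45) and Hspa4 (0.44) among the members then passed at 2 h, and only Hsf1 (0.63) and Hspa4 (0.44) at 6 h. Hspa8 (-0.29) and Dnajb1 (-0.27) fell between 2 h and 6 h by this scaling. Hspa8 and Hsph1 at 6 h took values of -0.05 and -0.033 relative to 0 h, neither of which passed. Of 12 calls made on the members over the 3 comparisons, 4 held under all 16 alternatives: Hspa4 at 2 h and at 6 h, Dnajb1 at 2 h and Hsf1 at 6 h.

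**Figure D3:**
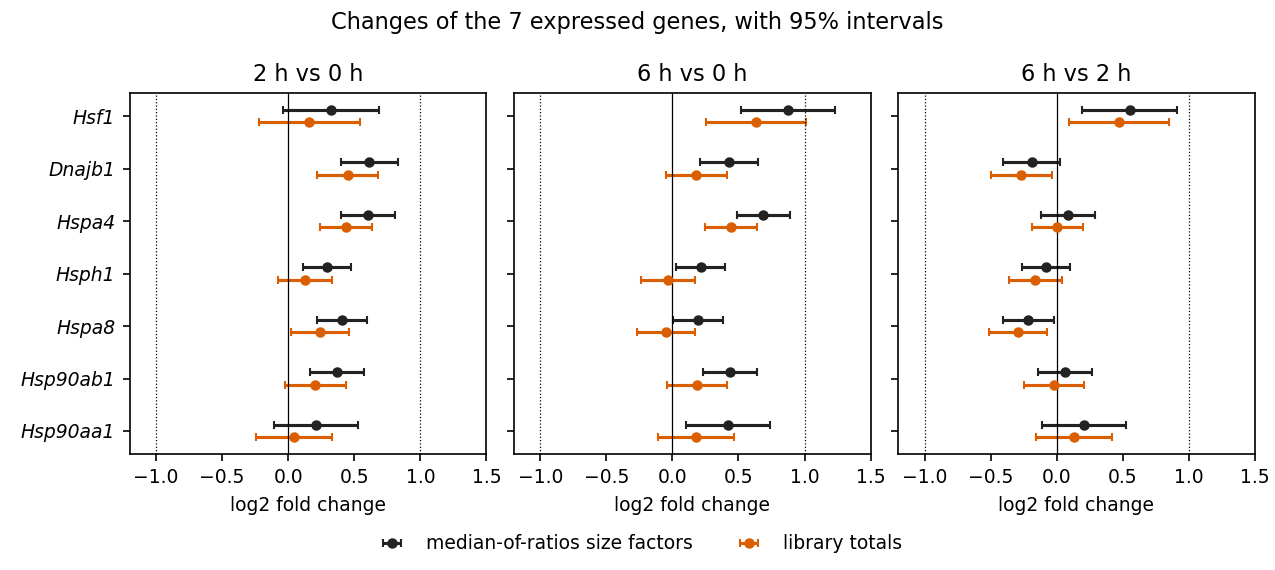
Log2 fold changes of the 7 expressed genes in the 3 comparisons, with 95% intervals, by DESeq2 with median-of-ratios size factors (black) and with library totals (orange). Dotted lines mark 2-fold. The orange points lie to the left of the black ones, and Hspa4 and Hsf1 stay clear of 0 at 6 h by both.

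The mix of transcripts of each gene was examined through the effective length, a mean over its transcripts that RSEM weights by abundance. The effective length also depends on the fragment sizes of a library. For the 7 expressed members the log2 ratio of effective lengths between times ran from -0.02 to 0.05. Hsf1 and Dnajb1 have 1 listed transcript each, so their mix could not change and only the other expressed members could show a shift. None passed limma (11233 genes, adjusted p up to 0.05 with a log2 ratio of 0.2 or more). Over all genes 0.0178% were called longer and 0.0178% shorter at 2 h, 0.0801% and 0.445% at 6 h, and 0.0267% and 0.089% between 2 h and 6 h. None of these members had an unadjusted p under 0.05 either. Hsph1 varied most between replicates, with 3347 and 3035 bases before KCl, 2986 and 3345 after 2 h, and 3165 and 3336 after 6 h. Its replicates thus differed by as much as its times.

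The wider chaperone network was read from 8 lists of genes. Their counts stand against the shares of all genes tested, 12.3% higher and 14.2% lower at 2 h and 23.7% higher and 21.7% lower at 6 h, and no list was tested as a group or is set apart by its count. Among 15 other heat-inducible HSF1 targets, 4 rose and 1 fell at 2 h, and 6 rose and none fell at 6 h (none at an unadjusted p or by edgeR either, and 1 with library totals). The list median was 0.21 at 2 h and 0.32 at 6 h. At 6 h 4 of these 15 genes rose by the fold rule (3 by edgeR), against 9.1% of all genes tested. Bag3, a co-chaperone that sends Hsp70 clients to autophagy, had normalized counts of 32.8 and 27.0 in the 0 h libraries, 63.9 and 85.8 in the 2 h pair, and 109 and 90.3 in the 6 h pair. Its log2 fold change was 1.32 at 2 h (SE 0.38, adjusted p = 0.00292) and 1.74 at 6 h (SE 0.37, adjusted p = 1.72e-05), and the 2 h call was lost without the first (adjusted p = 0.0593) or second 0 h (0.146) or the second 2 h library (0.124).

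Hspb8, the small heat shock protein that binds BAG3, had 71.9 and 110 normalized counts before KCl (0 h), 192 and 167 after 2 h, and 354 and 296 after 6 h. It rose by 0.98 on the log2 scale at 2 h (adjusted p = 0.00284, and 0.186 without the first 0 h library) and by 1.84 at 6 h (SE 0.28, adjusted p = 2.74e-10). Hspa4l, a further Hsp110, rose by 1.46 at 6 h (SE 0.24, adjusted p = 1.15e-08), with 1773 and 1615 normalized counts at 0 h and 4771 and 4554 at 6 h. Dnajb4, an Hsp40 close to Dnajb1, rose by 1.23 at 2 h (SE 0.22, adjusted p = 2.62e-07) and 1.03 at 6 h (adjusted p = 1.11e-05), and its 2 h replicates of 2821 and 1816 lay far apart. Cryab, the αB-crystallin gene, had log2 fold changes of 0.21 and 0.07 (adjusted p = 0.72 and 0.879).

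Of 4 other HSF genes and Hsbp1, which encodes a protein that binds HSF1, Hsf2, Hsf5 and Hsbp1 had an adjusted p. None passed at 2 h (Hsbp1 alone rose at an unadjusted p, and none by edgeR), and Hsf2, which can form mixed trimers with HSF1, rose by 0.96 at 6 h (SE 0.16, adjusted p = 2.07e-08). Its normalized counts were 1045 and 1005 in the 0 h libraries, 1236 and 990 in the 2 h pair, and 2139 and 1853 in the 6 h pair. Its rise of 0.84 between 2 h and 6 h became 0.22 (adjusted p = 0.323) after the GC correction.

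Among 20 tested genes of other Hsp70 proteins and co-chaperones, 4 rose and 3 fell at 2 h, and 6 rose and 5 fell at 6 h. Dnajb5, an Hsp40, had 2616 and 2672 normalized counts before KCl, 1222 and 1326 after 2 h and, part of the way back, 1932 and 1979 after 6 h. Its log2 fold change was -1.05 at 2 h (SE 0.11, adjusted p = 1.18e-19). Dnajb14, an Hsp40 of the endoplasmic reticulum, fell by 1.31 at 6 h (SE 0.21, adjusted p = 4.53e-09), on counts that were not whole in 5 libraries. Hspa1l, an Hsp70 gene next to the Hspa1a and Hspa1b pair that is best known from testis, fell by 1.18 at 6 h (SE 0.43, adjusted p = 0.0162) from 85.0 to 37.5 mean normalized counts, a call lost without the first (adjusted p = 0.103) or second 0 h (0.21) or the second 6 h library (0.275). Hspa1l overlaps Gm10501 on the other strand, and its counts were not whole in 4 libraries.

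Of 12 Hsp90 co-chaperones, 4 rose and 2 fell at 2 h, and 3 rose and 4 fell at 6 h. Unc45a, a myosin chaperone that works with Hsp90, had 584 and 598 normalized counts before KCl (0 h), 1328 and 1525 after 2 h, and 1669 and 1828 after 6 h, with log2 fold changes of 1.27 (SE 0.14, adjusted p = 4.5e-18) and 1.56 (SE 0.14, adjusted p = 9.25e-28). Cdc37l1, a relative of the kinase-loading factor Cdc37, rose by 1.08 at 6 h (SE 0.17, adjusted p = 3.94e-09). Fkbp5, an immunophilin of steroid receptor complexes, fell from 1140 and 1205 at 0 h to 441 and 454 at 6 h, or by 1.39 on the log2 scale (SE 0.14, adjusted p = 5.85e-23). Ttc4, an Hsp90-binding protein, fell by 1.14 between 2 h and 6 h (SE 0.13, adjusted p = 8.19e-17).

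The small heat shock proteins beyond Hspb1 held the largest log2 fold change of the 8 lists. No gene of the 3 tested passed at 2 h, also at an unadjusted p and by edgeR. At 6 h Hspb3 (chr13:113662896-113663676, minus strand), a small heat shock protein known from muscle and motor neurons, reached 217 and 211 normalized counts, against 9.77 and 16.9 before KCl and 16.0 and 23.8 after 2 h. The 95% interval of its log2 fold change was 3.19 to 4.81 (SE 0.41, adjusted p = 8.82e-21). Hspb11, which despite its name encodes a protein of the ciliary transport machinery, fell by 1.88 at 6 h (SE 0.28, adjusted p = 2.6e-10). Its expected counts were not whole in 5 libraries, so some of its reads were shared with other transcripts.

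The TRiC chaperonin, which folds actin and tubulin, showed small shifts: 3 of 8 subunits rose at 2 h and 2 at 6 h, none above 2-fold. With library totals none rose at either time and 3 fell at 6 h. Among 9 mitochondrial chaperones and proteases, 2 rose and 1 fell at 2 h, and 3 of each rose and fell at 6 h. The chaperonin pair Hspd1 (0.17 and 0.06, adjusted p = 0.288 and 0.713) and Hspe1 (0.09 and -0.15, adjusted p = 0.712 and 0.374) did not pass at 2 h or 6 h. Dnaja3, a mitochondrial Hsp40, fell by 1.43 at 6 h (adjusted p = 2.97e-21) and overlaps Coro7 and Vasn in the annotation, with whole counts in all 6 libraries. Clpp, a protease of the matrix, fell by 1.09 at 6 h (adjusted p = 2.11e-05).

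Of 16 genes of the endoplasmic reticulum and oxidative stress responses, 3 rose and 5 fell at 2 h, and 6 rose and 4 fell at 6 h. Atf4, the transcription factor of the integrated stress response, had 3178 and 3325 normalized counts in the 0 h libraries, 12185 and 14425 in the 2 h pair, and 12090 and 11114 in the 6 h pair, with log2 fold changes of 2.03 (SE 0.13, adjusted p = 5.78e-53) and 1.84 (SE 0.13, adjusted p = 1.91e-43). Chac1 and Trib3, known targets of ATF4, were called lower at 2 h. ATF4 protein was not measured here, and whether ATF4 acted on these genes was not tested. Chac1, which breaks down glutathione, had 118 and 104 normalized counts before KCl (0 h), 20.0 and 28.9 after 2 h, and 209 and 220 after 6 h, that is, it fell by 2.18 at 2 h (SE 0.33, adjusted p = 1.4e-09) and rose by 3.14 from 2 h to 6 h (SE 0.33, adjusted p = 5.95e-20). Trib3, a pseudokinase, fell by 2.47 at 2 h (adjusted p = 0.00691), on counts of 40.5 or less, and this call was lost without the first (adjusted p = 0.0517) or second 0 h (0.335) or the second 2 h library (0.102).

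Hspa5 (BiP), the Hsp70 of the endoplasmic reticulum, rose transiently. Its normalized counts were 9150 and 9443 in the 0 h libraries, 15367 and 16596 in the 2 h pair, and 9171 and 8560 in the 6 h pair. The log2 fold change was 0.78 at 2 h (SE 0.10, adjusted p = 1.09e-12), -0.07 at 6 h compared to 0 h (adjusted p = 0.631) and -0.85 at 6 h compared to 2 h (SE 0.10, adjusted p = 3.51e-15). Herpud1, a component of degradation at the endoplasmic reticulum, rose by 1.47 at 6 h (SE 0.12, adjusted p = 2.01e-30). Ddit3 (CHOP), the factor linked to cell death in that stress, had log2 fold changes of -0.20 and -0.37 (adjusted p = 0.513 and 0.116).

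Scaled by library totals, calls at 6 h moved towards lower levels over all genes (2637 higher and 5306 lower, against 4089 and 3744 by the size factors), and the lists moved with them. The HSF1 targets then had 4 higher and 1 lower, the Hsp70 group 3 and 8, the Hsp90 co-chaperones 3 and 6, the mitochondrial group 2 and 5, and the endoplasmic reticulum and oxidative stress group 5 and 8. At 2 h, where 1150 of all genes were then higher and 3339 lower, the HSF1 targets had 3 higher and 1 lower. The Hsp70 group had 2 and 5, the Hsp90 co-chaperones 2 and 2, and the mitochondrial group 1 and 1. The endoplasmic reticulum and oxidative stress group had 3 and 6.

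**Figure D4:**
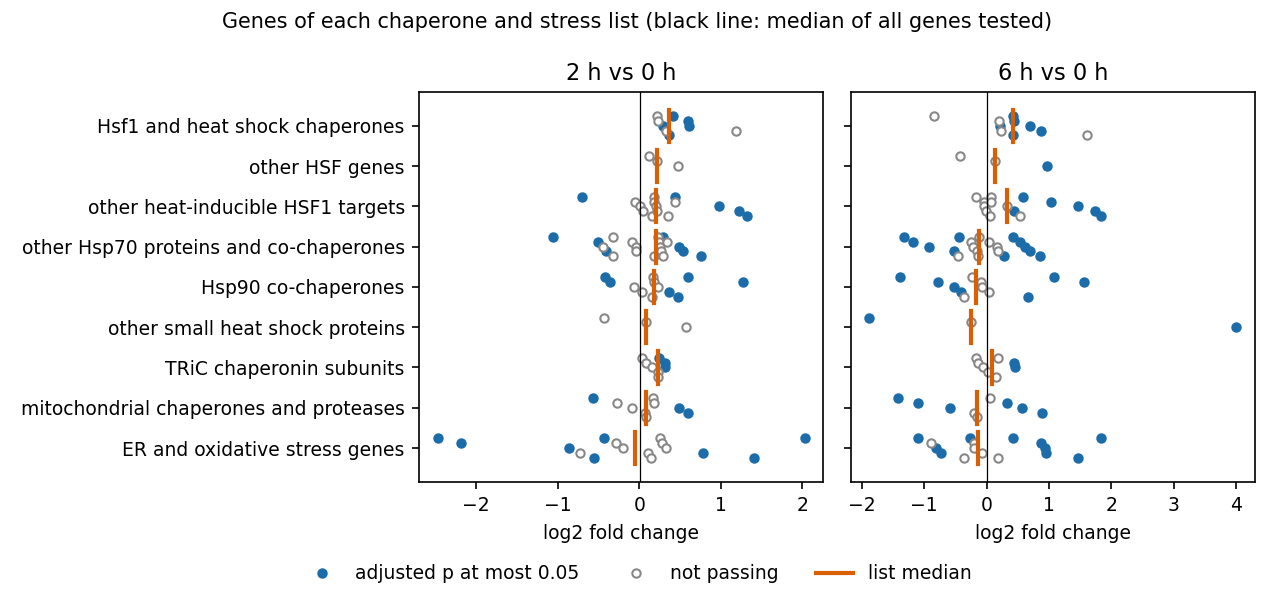
Log2 fold changes at 2 h and 6 h compared to 0 h of each tested gene of the 10 members and of 8 lists of chaperone and stress genes. Filled points passed an adjusted p of 0.05, orange bars are list medians and the black line is the median of all genes. The members lie within 2-fold apart from the scarce Hspa1b at 2 h and Hspb1 at 6 h. Neither passed, and the counts of Hspb1 are too low for its point to be read as a fold. At 6 h Hspb3, Bag3, Hspb8, Hspa4l and Atf4 are among the genes more than 2-fold higher. Hspb11, Dnaja3, Fkbp5, Dnajb14, Hspa1l, Sdf2l1 and Clpp are among those more than 2-fold lower.

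Astrocyte markers moved with time as well: their summed level was 434 and 474 TPM before KCl, 435 and 440 TPM after 2 h, and 372 and 363 TPM after 6 h, and 2 of 5 fell at 6 h (Gfap by 0.63 and Aldh1l1 by 0.41 on the log2 scale). The summed neuronal markers were 3525 and 3480 TPM before KCl, 2916 and 2819 TPM after 2 h, and 3081 and 3230 TPM after 6 h, and 3 of 7 rose and 2 fell at 6 h compared to 0 h. On the log2 scale Gad1 rose by 1.41, Snap25 by 0.89 and Map2 by 0.42, whereas Tubb3 fell by 1.01 and Slc17a7 by 0.44. Tubb3 itself had 1639 and 1679 TPM before KCl, 834 and 989 TPM after 2 h, and 666 and 794 TPM after 6 h. This fall was larger than that of the neuronal sum at both times, so the sum does not describe the other markers. The part of these shifts in the changes of the chaperone genes was not tested.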

How the data were processed

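Stranded poly(A) RNA-seq libraries (TruSeq, paired-end) of 6 cultures were analysed. Per the submitters' notes, reads were trimmed with Trim Galore, aligned to mm10 with Bowtie2 2.2.9 and quantified with RSEM 1.3.0. The annotation release and strand setting were not given in the sources used here. Per gene, the authors deposited expected counts (reads divided among transcripts by RSEM), TPM and the effective length in bases. Deposited FPKM values and the bisulfite-treated libraries were not used here. Names and coordinates came from a GENCODE annotation of GRCm38 and matched 42462 of 43432 identifiers.

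Expected counts were rounded and tested with DESeq2 1.42.0 (R 4.3.3), the tool of the study. All 6 libraries entered 1 fit by group, chosen here, with two-sided Wald tests with Benjamini-Hochberg adjustment over all genes, called where the adjusted p was 0.05 or less, and separately with a fold above 2 as the study asked. Totals of 25959298 to 28573067 leave counting error small for all but Hspa1a, Hspa1b and Hspb1. Effective lengths were tested with limma 3.58.1. Alternatives were edgeR 4.0.16 (quasi-likelihood), TMM factors, library totals, a minimum mean count of 10, a correction for GC content, a replicate block, leaving out each library, and limma on log2(TPM + 1). Hspa1a and Hspa1b were also summed. The members and lists were chosen with earlier results of these data known. The 10 members were named in full, and from each list up to 4 genes past the study's rule by size of change, together with Bag3, Hsf2, Hspd1, Hspe1, Hspa5, Ddit3 and Cryab. For Hsf1, the 5 genes of at least 100 mean normalized counts with the closest time course were named. Labels call the replicates biological duplicates. Nothing says whether they came from separate litters, and p-values measure the spread between these libraries.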

Additional observations from a re-analysis of the deposited data

How the results depend on the processing

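The main counts were 5 members higher at 2 h, 6 higher at 6 h, and 1 higher and 0 lower from 2 h to 6 h. With library totals they were 2, 2, 1 and 2. Limma on log2(TPM + 1), on log2(TPM + 0.1) and without a filter gave 2 at 2 h and 3 at 6 h each. For 6 h against 2 h, 1 member was lower with edgeR, with TMM factors and with the replicate block with GC correction, and 2 with the GC correction alone. Leaving out 1 library at a time gave 2 to 6 higher at 2 h, 2 to 7 at 6 h, and 0 to 2 higher and 0 to 1 lower between 2 h and 6 h. The fewest came without a 0 h library at 2 h (2 each) and without the second 0 h or the first 6 h library at 6 h (2 each), and Hsf1 lost its call between 2 h and 6 h without either 6 h library (0 each). In these fits the lone library is assumed to vary like the other groups.

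Hsph1 at 6 h reversed with library totals (-0.033) and on the TPM scale (-0.0026 in all 3 limma fits). The cause was not tested. The replicate block kept 5 higher at 2 h and gave 5 at 6 h, where Hsph1 lost its call (adjusted p = 0.0994). The labels do not say that replicate numbers mark shared cultures, and across genes their deviations from the group means had a correlation of r = 0.28 for 0 h and 2 h, -0.0023 for 0 h and 6 h and 0.15 for 2 h and 6 h over 12290 genes. No member passed with a fold above 2 under any alternative.

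Over all genes, 2073 rose at 2 h, against 1150 with library totals, 3577 with the GC correction, 3146 with the block and GC correction, and 837 to 867 without a 0 h library. At 2 h 2396 fell, against 1076 to 1129 without a 0 h library. Without a 6 h library 1282 to 1285 rose at 2 h. At 6 h 4089 rose and 3744 fell, against 2637 higher with library totals, and 2470 to 2712 higher and 2183 to 2344 lower without a 0 h or a 6 h library. Between 2 h and 6 h 3960 rose and 3478 fell, against 2473 to 2491 and 2094 to 2100 without a 6 h library. Calls at 6 h with a fold above 2 numbered 1572 higher against 1032 with library totals. Hspa1a, Hspa1b and Hspb1 had few counts: Hspa1b at 2.28-fold at 2 h did not pass (adjusted p = 0.293, interval 0.788 to 6.59).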
